A study of Mus musculus with 6 samples.

Results

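Mitochondrial protein import genes were followed in islets of Langerhans from male mice of strain C57BL/6, taken on postnatal day 24. The set is defined by gene names. It takes the protein-coding genes of the GENCODE vM21 mouse annotation whose symbols begin with Timm or Tomm and a digit, plus Hspd1, Hspe1, Hspa9, Grpel1, Pmpca, Pmpcb, Samm50, Chchd4 and Gfer. This gave 34 genes out of 54119 annotated genes matched in the files. Of these, 32 passed the filter on low counts, among 16430 genes that passed it.

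Islets came from 3 Dpy30 knockout mice and 3 control mice, with 1 library of hand-picked islets per mouse. Dpy30 encodes a core subunit of the complexes that methylate lysine 4 of histone H3. The labels name neither the Cre driver or other means of deletion, nor the deleted part of the gene, nor the genotype of the controls beyond the word control. Estimated reads per library numbered 22694892, 17131515 and 23976598 in knockout and 25208847, 25354384 and 24575889 in control islets. The summed Dpy30 level did not mark the groups (log2 fold change 0.40 ± 0.22 SE, adjusted p = 0.286). However, transcripts without exon 4 made up 82.2%, 81.0% and 80.5% of Dpy30 reads in knockout islets, against 5.24%, 0.438% and 3.78% in control islets.

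Nearly all proteins of a mitochondrion are made in the cytosol and pulled in through channels. The TOM complex forms the channel and receptors of the outer membrane, and the TIM23 and TIM22 complexes carry presequence proteins and metabolite carriers through or into the inner membrane. Small Tim chaperones guard hydrophobic proteins in the intermembrane space, a disulfide relay folds cysteine-rich ones there, a motor around the chaperone mortalin pulls presequence proteins into the matrix, and a peptidase and a chaperonin cut and fold them. Pancreatic beta cells depend on mitochondrial ATP to couple glucose to insulin release.

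In Dpy30 knockout islets, all 32 tested import genes had log2 fold changes above 0, and 4 of them passed the test. Tomm6, Tomm40l and Tomm22 of the outer membrane and Timm50 of the inner membrane rose, by 0.59 to 0.96 on the log2 scale, and no import gene fell. Hspd1, Hspa9, Tomm20, Tomm34, Timm21 and Timm29 had log2 fold changes of 0.03 to 0.12, below their standard errors.

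Promoter windows were examined for the import genes that had one, which leaves out Tomm40l, a gene that rose. The windows run from 250 bases before to 50 bases after each transcription start, read from RefSeq on GRCm38.p6, and 30 of the 34 genes had one. Windows of 4 genes are shown 5′ to 3′ on the strand of the gene, because 3 of them belong to genes that rose and the other overlaps windows of its divergent neighbour Hspd1. Capitals mark matches to the short motifs described next.
Tomm6: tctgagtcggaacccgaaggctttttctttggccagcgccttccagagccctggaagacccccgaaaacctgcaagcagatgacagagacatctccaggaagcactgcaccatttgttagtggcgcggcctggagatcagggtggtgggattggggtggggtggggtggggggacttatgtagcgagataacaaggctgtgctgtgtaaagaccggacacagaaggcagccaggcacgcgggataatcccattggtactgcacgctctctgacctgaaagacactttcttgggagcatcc
Timm50: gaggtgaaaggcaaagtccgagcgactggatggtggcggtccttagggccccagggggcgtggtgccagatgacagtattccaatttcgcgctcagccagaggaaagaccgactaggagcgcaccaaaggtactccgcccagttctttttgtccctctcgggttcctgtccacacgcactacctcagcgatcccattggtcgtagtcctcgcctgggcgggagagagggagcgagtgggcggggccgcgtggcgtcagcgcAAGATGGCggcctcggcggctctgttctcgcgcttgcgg
Tomm22: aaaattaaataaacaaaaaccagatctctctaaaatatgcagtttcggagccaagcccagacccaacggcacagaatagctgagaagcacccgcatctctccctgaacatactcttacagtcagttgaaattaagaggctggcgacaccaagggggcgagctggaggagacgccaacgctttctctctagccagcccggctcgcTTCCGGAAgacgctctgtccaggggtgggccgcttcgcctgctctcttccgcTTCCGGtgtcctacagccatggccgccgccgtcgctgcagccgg
Hspe1: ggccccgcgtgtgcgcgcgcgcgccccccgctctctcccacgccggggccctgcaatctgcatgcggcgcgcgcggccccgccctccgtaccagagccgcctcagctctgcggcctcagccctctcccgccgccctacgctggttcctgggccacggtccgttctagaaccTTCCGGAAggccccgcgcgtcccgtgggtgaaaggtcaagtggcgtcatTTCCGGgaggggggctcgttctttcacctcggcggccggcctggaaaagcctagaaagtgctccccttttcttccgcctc
The Tomm6 window lies at chr17:47688337-47688636 on the minus strand and holds none of the motifs searched. The Timm50 window, at chr7:28311997-28312296 on the minus strand, holds the YY1 motif AAGATGGC from position 12, counted from the transcription start with negative numbers before it. In the Tomm22 window, at chr15:79670618-79670917 on the plus strand, the ETS core lies on both strands from positions -46 and -44 and once more from position 7. The Hspe1 window, at chr1:55087898-55088197 on the plus strand, holds overlapping ETS cores from -79 and -77 and another from -30, and overlaps both windows that the RefSeq table gives for Hspd1, a gene on the opposite strand.

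The ETS core searched was CCGGAA, the core that GABPA and other ETS factors bind, on both strands. It was found in 16 of the 30 windowed import genes (53.3%), against 29.2% of 11082 tested protein-coding genes and 16.7% of all 27025 genes of the table. Among the 28 tested import genes with a window it was in 15 (53.6%). Hspd1 and Hspe1 each count, although their overlapping windows share the same cores. The longer ETS motif CCGGAAGT, which contains that core, was found in 7 of the 30 (23.3%) and 6 of the 28 (21.4%), against 8.39% of the tested protein-coding genes. NRF1 is another regulator of nuclear genes for mitochondria. Its half-site TGCGCA, which reads the same on both strands, was in 5 windows (16.7%), against 15.2%, and its longer core GCGCATGC was in 2 (6.67%), against 5.67%. AAGATGGC was in 1 window (3.33%), against 4.87%, and the TATA box TATAAA was in 2 (6.67%), against 9.01%. The windows of import genes had a median GC content of 60.0% and a median of 20.2 CpG, against 60.7% and 20.0 CpG in the tested protein-coding genes. The presence of the ETS core did not separate the import genes by fold change. The 15 tested genes with it had a median log2 fold change of 0.37 (0.03 to 0.86), and the 13 with a window but no core had 0.44 (0.10 to 0.86). A match describes letters only, and binding was not measured here.

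Some import genes share a promoter region with a divergent neighbour. Of the 34, 13 (38.2%) had a protein-coding neighbour on the opposite strand whose start lay within 1000 bases, against 15.0% of 14232 tested protein-coding genes. Of the 13 partners, 8 had log2 fold changes above 0, against 50.5% of all tested genes. These 8 include Hspd1 and Hspe1, import genes that are partners of each other. The partners named here were chosen after their values were seen. Chchd4 and its partner Tmem43, which encodes a protein of the inner nuclear membrane, lay 157 bases apart and had log2 fold changes of 0.54 and 0.52 ± 0.13 (adjusted p = 0.0366 for Tmem43). Pmpca and Entr1 lay 23 bases apart with 0.45 and 0.46, and Timm17b and Pqbp1 lay 88 bases apart with 0.37 and 0.37, none of them past the threshold. Timm29 and Yipf2, whose transcripts overlap, had 0.07 and -0.54 (adjusted p = 0.06 for Yipf2).

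Levels between genes were compared per transcript length, in TPM, within each group. In knockout islets the highest means were Hspe1 with 132 ± 13.9, Tomm6 with 123 ± 32.8, Timm13 with 110 ± 4.67, Timm8b with 106 ± 11.5 and Hspd1 with 95.1 ± 30.2 TPM (SD, n = 3). In control islets the same 5 genes led in another order, with Hspe1 at 88.7 ± 39.4, Hspd1 at 71.9 ± 16.2, Timm13 at 69.9 ± 10.5, Timm8b at 66.4 ± 8.38 and Tomm6 at 61.0 ± 2.97 TPM (SD, n = 3). Neighbours in these orders overlapped in their spread: Hspe1 alone ranged over 121 to 147 TPM in knockout islets and 64.9 to 134 TPM in control islets. The small chaperone Timm8a1 was the lowest of the 32 tested genes, with 4.95 ± 1.41 TPM in knockout and 3.10 ± 0.897 TPM in control islets (SD, n = 3 each). Timm8a2 had 0 to 0.063 CPM (counts scaled to a common library size), and Tomm20l, a Tomm20 paralog, was at 0 in every library. A count of 0 allows Tomm20l up to 0.113 to 0.189 CPM in these libraries, for counting error only.

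Differences between the groups were tested on counts with the edgeR quasi-likelihood test, adjusted over all 16430 tested genes by the Benjamini-Hochberg method, with 0.05 as threshold. Levels per library are CPM. Of the 32 tested import genes, 4 rose (12.5%) and 0 fell, where 4.52% of all tested genes rose and 6.25% fell. At an unadjusted p under 0.05, 14 were higher and 0 lower, against 13.8% of all tested genes higher. DESeq2 and limma-voom also called 0 lower, against 8.75% and 6.22% of all genes. All 32 log2 fold changes were above 0, against 50.5% of all tested genes. Their median was 0.39, with quartiles of 0.27 and 0.50, against a median of 0.006 over all tested genes. In 15 of the 32 (46.9%) every knockout library lay above every control library, against 17.6% of all tested genes, and in 0 every one lay below, against 17.2%. Summed over the 34 genes, the level was 1720, 1789 and 1649 CPM in knockout islets and 1357, 1331 and 1476 CPM in control islets. The sums averaged 1719 ± 70.3 CPM in knockout and 1388 ± 77.2 CPM in control islets (SD, n = 3 each) and did not overlap.

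**Figure D1:**
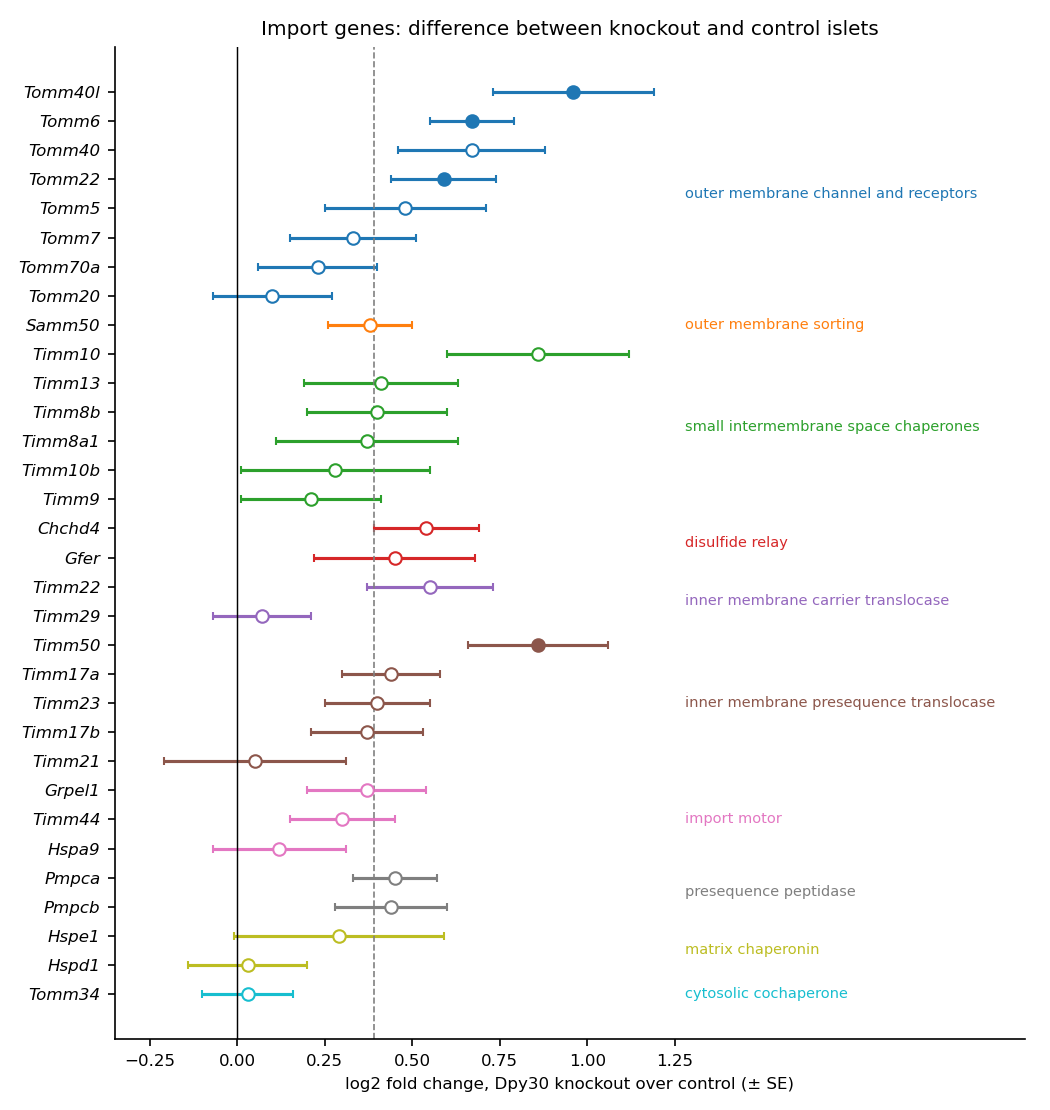
Log2 fold change of each tested import gene, Dpy30 knockout over control (x axis, bars ± SE from the edgeR fit), with genes grouped and coloured by role. Filled points passed an adjusted p of 0.05 and the dashed line marks the median of 0.39; all 32 points lie right of 0.

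The count of 4 depended on single libraries. It was 1 without control replicate 1, 1 without control replicate 2 and 0 without control replicate 3, where 13 genes were still higher at an unadjusted p under 0.05. It was 4, 2 and 2 without knockout replicates 1, 2 and 3. Of all genes, these fits called 2.63%, 2.06% and 2.06% higher when a control library was left out and 3.21%, 3.67% and 2.11% when a knockout library was, in the order of the replicate numbers. Libraries of replicate numbers 1 and 3 deviated together across groups, with correlations of 0.427 and 0.196. For number 2 the correlation of 0.135 was no higher than the 0.14 of control replicate 3 with knockout replicate 2. With the replicate number as a block 9 genes rose, against 8.33% of all tested genes: the 4 named and Pmpca, Chchd4, Timm10, Tomm40 and Timm22. DESeq2 called 10, those 9 and Samm50, against 7.31% of all genes it tested. In the authors' deposited table all 32 genes had log2 fold changes above 0 and 9 of them an adjusted p under 0.05, against 6.66% of 17145 genes. The authors' deposited table holds Timm17a among its 9 and does not call Tomm40.

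Markers of several cell types moved with the groups. The summed level of 7 endocrine markers was 105947 to 155929 CPM in knockout and 237082 to 316937 CPM in control islets, with 4 of 7 lower, and 2 to 4 when single libraries were left out. Acinar markers, of digestive enzyme cells around the islets, summed to 1840 to 10261 CPM in knockout and 648 to 2618 CPM in control islets, with 0 of 11 tested called by edgeR or DESeq2 and 1 higher at an unadjusted p under 0.05. With the acinar level as a covariate, Timm50 and Tomm22 were called, against 1.67% of all tested genes, and the median log2 fold change of the import genes was 0.57. Endothelial markers summed to 768 to 1003 CPM in knockout and 577 to 713 CPM in control islets, with 5 of 7 higher, 0 to 5 when single libraries were left out and 1 with the acinar covariate, and no marker of any of these lists was at 0. Mesenchymal markers summed to 342 to 720 CPM in knockout and 193 to 417 CPM in control islets, with 1 of 7 higher, 3 by DESeq2 and 7 with the replicate block. Ductal markers summed to 280 to 346 CPM in knockout and 274 to 332 CPM in control islets, and immune markers to 64 to 76 CPM in knockout and 65 to 107 CPM in control islets, each with 1 gene higher and 1 lower, which depended on single libraries. Leaving Ins1, Ins2 and Gm42418 out of the scaling of libraries, though not out of the test, left 4 import genes called. The part of endocrine, endothelial, mesenchymal, ductal and immune cells in the import genes' values was not tested. In whole islets, fewer cells of a type and less RNA per cell cannot be told apart, so a level here is that of the mixture.

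The outer membrane channel and its receptors held 3 of the 4 genes that rose. Among 8 tested genes the median log2 fold change was 0.54. Tomm6, a small subunit of the channel at chr17:47686646-47688386 on the minus strand, had 57.9, 57.4 and 55.7 CPM in knockout islets and 34.2, 38.2 and 34.9 CPM in control islets. Every knockout library lay above every control library and the spread within each group was small. Its log2 fold change was 0.67 ± 0.12 SE (adjusted p = 0.0106), and it did not pass when control replicate 3 was left out (adjusted p = 0.0503) or with the acinar level as a covariate (adjusted p = 0.0737). An antisense gene, Tomm6os, overlaps Tomm6 and held 57.7 reads on average, or 5.42% of those of Tomm6, and Usp49, also on the opposite strand, held 395 reads. Grpel1, Hspd1, Hspe1, Pmpca, Timm10b, Timm29, Timm8b, Tomm34 and Tomm70a overlap expressed genes on the opposite strand too. The libraries were made to keep strand, but no source used here says whether reads were assigned by strand, so these levels may hold reads of both genes.

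Tomm40l encodes a paralog of the channel protein Tomm40 and lies at chr1:171216011-171222514 on the minus strand. It had 34.4, 55.1 and 40.4 CPM in knockout islets and 16.2, 24.5 and 25.8 CPM in control islets. The groups did not overlap, and knockout replicate 2 was the highest library. This was the largest log2 fold change of the 32 genes, 0.96 ± 0.23 SE (adjusted p = 0.0305), and it stayed past the threshold in 1 of 6 fits that left out a library. Tomm40 itself, the pore of the channel, had 28.6, 40.2 and 41.4 CPM in knockout islets, against 17.7, 23.6 and 28.2 CPM in control islets. The knockout libraries lay above the control libraries by a small margin, with a log2 fold change of 0.67 ± 0.21 SE (adjusted p = 0.081, and 0.012 with the replicate block).

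Tomm22, the central receptor that docks presequence proteins to the channel, lies at chr15:79670861-79673400 on the plus strand. Its level was 56.2, 64.3 and 46.0 CPM in knockout islets and 37.0, 34.7 and 39.0 CPM in control islets, without overlap. Its log2 fold change was 0.59 ± 0.15 SE (adjusted p = 0.0417), lost in 5 of 6 fits that left out a library and with limma-voom (adjusted p = 0.0511). The call was also lost with a transcript-length offset (adjusted p = 0.0701). Tomm20, the main presequence receptor, had 136, 97.4 and 103 CPM in knockout islets and 117, 103 and 93.8 CPM in control islets. Its groups overlapped and its log2 fold change was 0.10 ± 0.17 SE (adjusted p = 0.746). Tomm70a, the receptor for carrier proteins, had log2 fold change 0.23 (adjusted p = 0.428), and the small subunits Tomm5 and Tomm7 had 0.48 and 0.33 (adjusted p = 0.207 and 0.257). Samm50, the core of the machinery that inserts barrel proteins into the outer membrane, had 76.2, 78.7 and 74.3 CPM in knockout islets and 55.8, 61.3 and 59.5 CPM in control islets. The groups were far apart relative to their spread, and the log2 fold change was 0.38 ± 0.12 SE (adjusted p = 0.0806).

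In the presequence translocase of the inner membrane, Timm50 rose. It encodes the receptor that takes presequences from the outer membrane channel, and lies at chr7:28305516-28312072 on the minus strand. Its level was 26.1, 40.6 and 26.6 CPM in knockout islets and 15.0, 17.8 and 18.3 CPM in control islets. No library of one group reached the other, and knockout replicate 2 was again the highest. The log2 fold change was 0.86 ± 0.20 SE (adjusted p = 0.0293), and it passed the threshold in 2 of 6 fits that left out a library.

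Its channel partners had smaller differences that did not pass the threshold. Timm23, the channel-forming subunit, had 56.0, 68.4 and 50.9 CPM in knockout islets and 40.3, 43.1 and 49.4 CPM in control islets (log2 fold change 0.40 ± 0.15 SE, adjusted p = 0.134). Timm17a and Timm17b, paralogs that build alternative forms of the channel, had log2 fold changes of 0.44 and 0.37 (adjusted p = 0.0865 and 0.176). In these 3 genes all knockout libraries lay above all control libraries. Timm21, which links the inner to the outer channel, had a log2 fold change of 0.05 ± 0.26 SE with overlapping groups.

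No gene of the motor or of the matrix peptidase passed the threshold in the edgeR fit with neither a replicate block nor a transcript-length offset. Hspa9, the mortalin chaperone that drives the motor, had 236, 150 and 215 CPM in knockout islets and 210, 168 and 176 CPM in control islets (log2 fold change 0.12 ± 0.19 SE, adjusted p = 0.732). Its groups overlapped, and knockout replicate 2 was the lowest library. Timm44, which anchors mortalin at the channel, and Grpel1, its nucleotide exchange factor, had log2 fold changes of 0.30 and 0.37 (adjusted p = 0.231 and 0.20). Pmpca, the alpha subunit of the peptidase that removes presequences, had 94.9, 101 and 86.8 CPM in knockout islets and 70.2, 67.1 and 69.3 CPM in control islets. All 3 knockout libraries were above the control libraries, with a log2 fold change of 0.45 ± 0.12 SE (adjusted p = 0.0511). The adjusted p was 0.0484 with the replicate block and 0.0483 with the transcript-length offset. Pmpcb, the catalytic beta subunit, had 0.44 ± 0.16 SE without overlap (adjusted p = 0.115).

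The chaperonin genes did not pass the threshold. Hspd1 encodes the HSP60 subunits of the folding chamber and had 169, 155 and 196 CPM in knockout islets and 161, 146 and 202 CPM in control islets. These values interleave, and the log2 fold change was 0.03 ± 0.17 SE (adjusted p = 0.927). Hspe1, the HSP10 lid, whose window is shown above, had 59.0, 92.8 and 70.3 CPM in knockout islets and 42.5, 48.5 and 90.4 CPM in control islets. Control replicate 3 lay among the knockout libraries, and the log2 fold change was 0.29 ± 0.30 SE (adjusted p = 0.581), with 0.09 to 0.70 over the fits that left out a library. Processed pseudogenes of Hspd1, Hspe1 and Hspa9 held at most 2.05 reads each in any library. Tomm34, a cytosolic cochaperone of import, had 0.03 ± 0.13 SE.

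In the intermembrane space, 0 of 6 tested small chaperones passed the threshold in the edgeR fit, with 1 at an unadjusted p under 0.05 and called by DESeq2. That one was Timm10, which forms with Timm9 the hexamer that escorts carrier proteins. Timm10 had 9.31, 13.4 and 7.22 CPM in knockout islets and 5.17, 5.43 and 5.83 CPM in control islets, without overlap (log2 fold change 0.86 ± 0.26 SE, adjusted p = 0.0706, and 0.0469 with the replicate block). Timm9 had 10.2, 11.8 and 12.4 CPM in knockout islets and 8.51, 10.2 and 11.0 CPM in control islets (log2 fold change 0.21 ± 0.20 SE, adjusted p = 0.528). The other small chaperones Timm13, Timm8b, Timm8a1 and Timm10b had log2 fold changes of 0.41, 0.40, 0.37 and 0.28, all with overlapping groups. Timm8b had 31.2, 41.5 and 26.7 CPM in knockout islets and 20.9, 27.5 and 26.8 CPM in control islets, so only knockout replicates 1 and 2 exceeded the controls. Timm13 had 33.9, 58.0 and 37.3 CPM in knockout islets and 27.3, 32.7 and 37.2 CPM in control islets, so knockout replicate 1 lay within the control range.

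Chchd4 encodes MIA40, the oxidase of the disulfide relay, and had 32.4, 31.9 and 25.8 CPM in knockout islets and 20.6, 19.7 and 21.7 CPM in control islets. The groups did not overlap (log2 fold change 0.54 ± 0.15 SE, adjusted p = 0.0528, and 0.0429 with the replicate block). Gfer, the enzyme that reoxidises MIA40, had 12.5, 16.3 and 15.4 CPM in knockout islets and 7.76, 11.6 and 12.9 CPM in control islets (log2 fold change 0.45, adjusted p = 0.244). Timm22, the channel that inserts carriers into the inner membrane, had 19.0, 25.3 and 19.1 CPM in knockout islets and 13.6, 15.1 and 14.5 CPM in control islets. Its groups did not overlap, with a log2 fold change of 0.55 ± 0.18 SE (adjusted p = 0.0812, and 0.0431 with the replicate block). Timm29, its partner subunit in human cells, had 0.07 ± 0.14 SE.

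**Figure D2:**
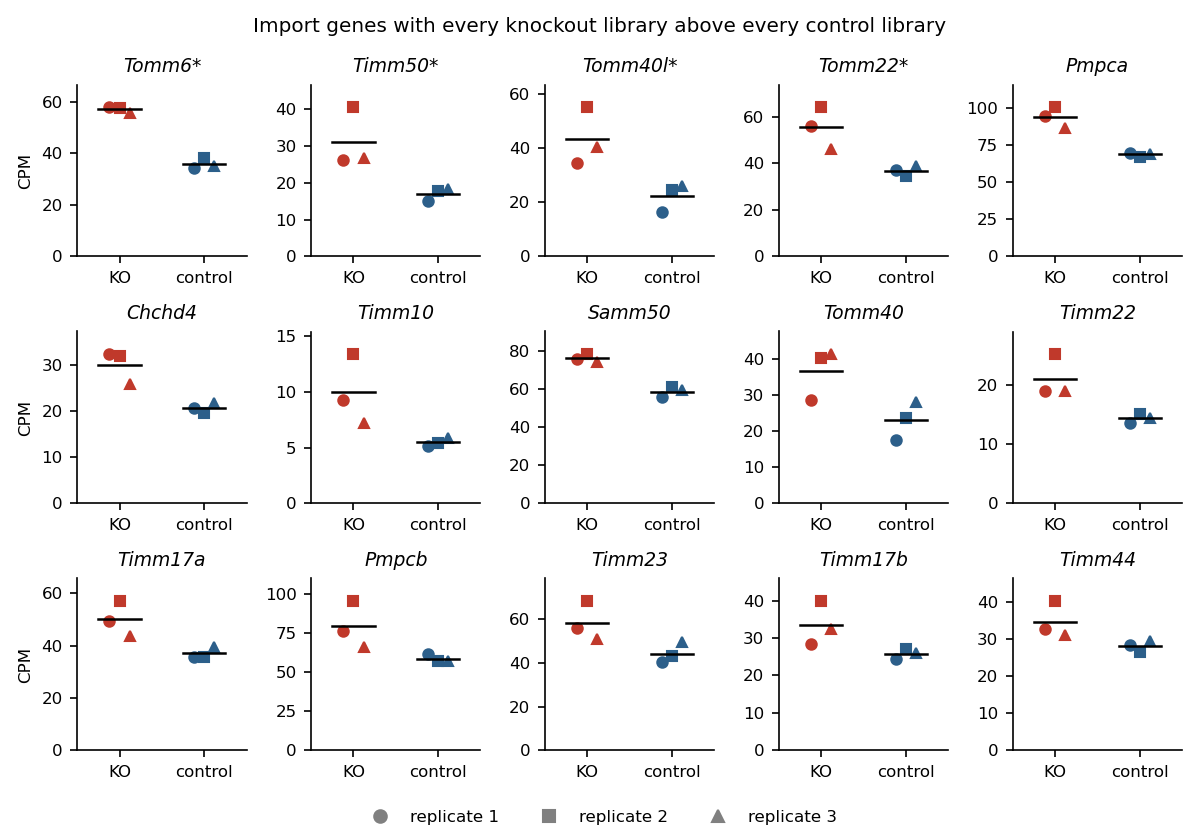
CPM (y axis, from 0) of the 15 import genes whose knockout (KO) libraries all lie above the control libraries. Each point is 1 mouse, marker shapes give the replicate number, black lines are group means, and asterisks mark the 4 genes past the adjusted threshold; Tomm6 at 55.7 to 57.9 in knockout against 34.2 to 38.2 in control has the narrowest knockout group among those 4.

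The libraries did not contribute alike to these differences. Relative to each gene's mean over the 6 libraries, the median import gene stood at 0.16, 0.42 and 0.08 in knockout libraries 1, 2 and 3, against -0.30, -0.22 and -0.10 in control libraries 1, 2 and 3. Thus all 3 knockout medians were above all 3 control medians. Of the 32 genes, 24, 26 and 21 were above their own mean in the knockout libraries, against 4, 3 and 8 in the control libraries. The highest of the 6 libraries was knockout replicate 2 for 21 genes, and the lowest was control replicate 1 for 18.

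Transcript length moved with library as well. Knockout replicate 2 held 14.7% of its reads in the gene Gm42418, against 0.099% to 0.236% in the other libraries. Relative level was correlated with length over the 11628 tested genes at least as high as the lowest import gene. The Spearman correlation was -0.492 in knockout replicate 2 and 0.0309 to 0.266 in the other 5 libraries, as a description of libraries. Import genes have short transcripts, with a median effective length of 1226 bases against 2223 over all tested genes. The 16 shorter genes had a median log2 fold change of 0.40, and 0.22 without knockout replicate 2, while the 16 longer genes had 0.37, and 0.33 without it. Among all 2198 tested genes at least as high as the lowest import gene and of at most 1226 bases, the median was 0.25, and 0.13 without knockout replicate 2. With a transcript-length offset 5 import genes were called, against 4.02% of all tested genes: Tomm6, Tomm40l, Timm50, Pmpca and Timm22. Tomm22 was not among them (adjusted p = 0.0701). With that offset and without knockout replicate 2 only Tomm6 was called, against 2.97%.

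**Figure D3:**
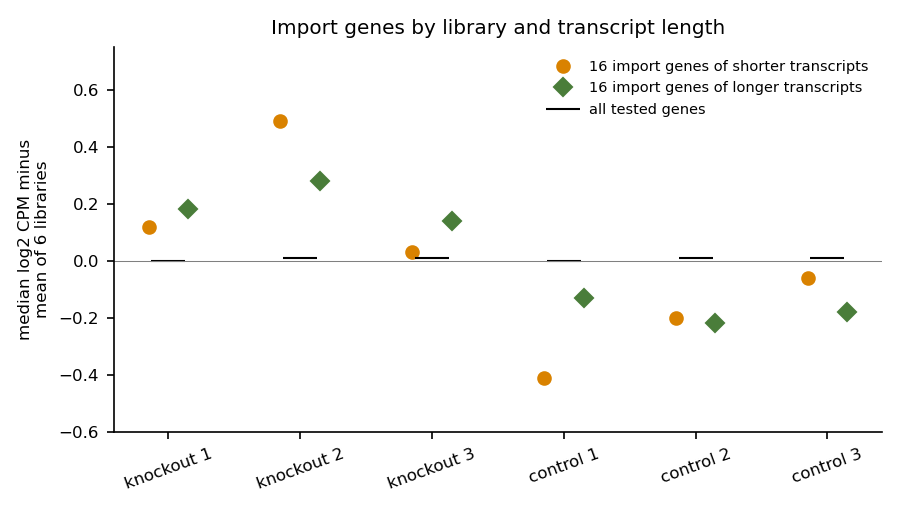
Median over import genes of log2 CPM minus each gene's mean over the 6 libraries (y axis), by library, for the 16 genes of shorter and the 16 of longer transcripts, with black dashes for all tested genes. Both sets lie above 0 in every knockout library and below 0 in every control library, and the shorter set spans 0.49 in knockout replicate 2 to -0.41 in control replicate 1.

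Genes whose products work as partners were compared by the log2 ratio of their TPM within each library. Of 14 pairs, only Timm23 to Timm50 had groups that did not overlap. Its log2 ratios were 1.48, 1.00 and 1.30 in knockout islets and 1.74, 1.55 and 1.75 in control islets, or 1.26 ± 0.24 and 1.68 ± 0.11 (SD, n = 3 each). The difference of -0.42 had an exact two-sided permutation p = 0.1, the smallest that 3 against 3 mice allow, and 0.7 after adjustment over the 14 pairs. Timm9 to Timm10 had ratios of -0.23, -0.51 and 0.49 in knockout islets and 0.43, 0.52 and 0.66 in control islets. Knockout replicate 3 lay within the control range (difference -0.62, exact permutation p = 0.2). The ratios of Timm8b to Timm13, Timm17a to Timm17b and Timm8a1 to Timm13 differed by 0.01, -0.02 and -0.01 between the groups, with control SDs of 0.12, 0.04 and 0.44. Hspd1 to Hspe1 differed by -0.28 with overlapping groups (exact permutation p = 0.4).

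**Figure D4:**
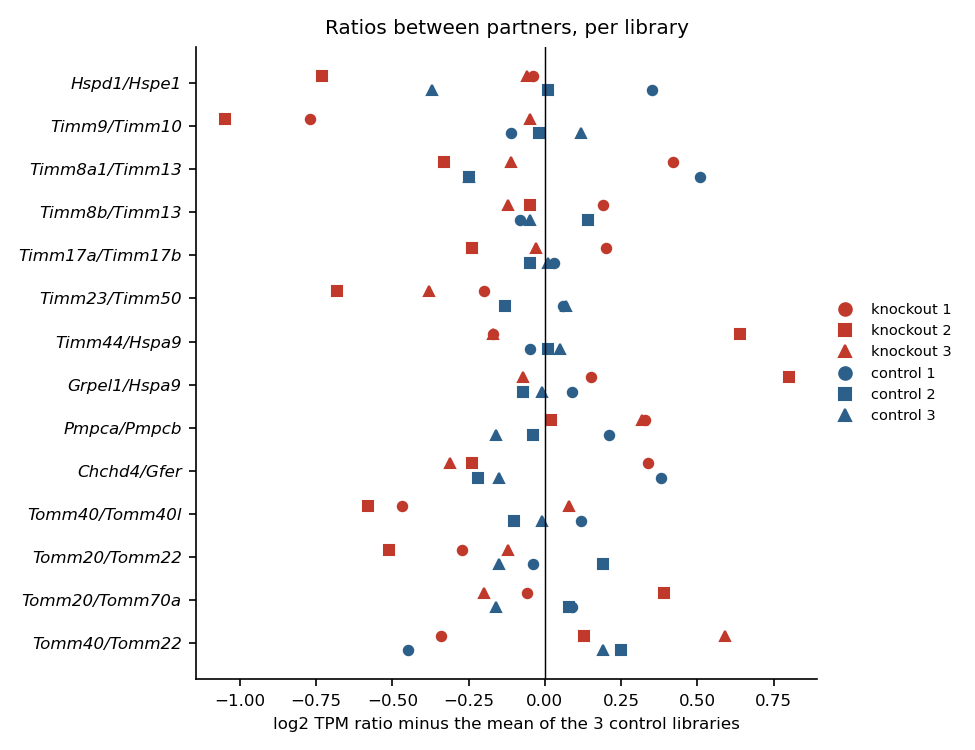
Log2 TPM ratio of each of 14 partner pairs in each library, minus the mean of the 3 control libraries (x axis), with knockout points red and control points blue and shapes giving the replicate. Timm23/Timm50 is the one pair whose 3 knockout points all lie left of its 3 control points.

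Transcript use was compared for 22 genes with more than 1 transcript in use. Timm22 had the largest difference in the share of its leading transcript. Timm22-201, a protein-coding form of 2817 bases, made up 40.8%, 32.0% and 37.7% of Timm22 TPM in knockout islets and 58.3%, 48.0% and 61.9% in control islets. The groups did not overlap, at 36.8% ± 4.45 and 56.1% ± 7.23 (SD, n = 3 each), with exact permutation p = 0.1 and 0.786 adjusted over the 22 genes. The share of estimated reads differed by -8.46 percentage points, less than the -19.3 points in TPM. A short form of 362 bases rested on only 12, 14 and 23 reads in knockout and 3, 6 and 0 reads in control islets. Hspd1-201 was the other leading transcript without overlap, at 87.3% ± 1.36 in knockout and 90.9% ± 2.51 in control islets (SD, n = 3 each, exact permutation p = 0.1). Where transcripts are short the estimate of a share is uncertain, and the authors' deposited table gives Timm22 a log2 fold change of 0.91, against 0.55 in the fit to summed counts and 1.01 with the transcript-length offset (adjusted p = 0.0212).

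Of these 22 genes, 4 had a leading transcript that is not annotated as protein-coding, and they are named after their values were seen. Timm17a-204, annotated as a retained intron, made up 72.0% ± 4.48 of Timm17a TPM in knockout and 72.6% ± 3.07 in control islets (SD, n = 3 each). Samm50-205, also a retained intron, had 42.4% ± 3.65 and 47.1% ± 4.22, and the processed transcript Tomm40l-208 had 33.4% ± 5.80 and 33.3% ± 5.42, in knockout and control islets. For Timm21 it was another retained intron, with 29.6% ± 5.54 in knockout and 29.3% ± 2.52 in control islets. The groups overlapped for each, and the levels of these genes include RNA that is not annotated to encode protein.

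Genes around the import machinery were read from lists, where 4.52% of all tested genes rose and 6.25% fell. Of 22 further import and insertion genes, 3 rose and 0 fell (10 higher and 1 lower at an unadjusted p under 0.05, 0 lower with DESeq2), with a median log2 fold change of 0.31. With the replicate block 6 rose, and leaving out single libraries left 0 to 2. Dnajc15, a motor cochaperone, had 30.7, 32.9 and 27.4 CPM in knockout islets and 16.8, 19.9 and 18.4 CPM in control islets (log2 fold change 0.73 ± 0.15 SE, adjusted p = 0.0169). Dnlz, which keeps mortalin soluble, reached 0.84 on the log2 scale (adjusted p = 0.0491), and Romo1, a small inner membrane protein, had 0.80 (adjusted p = 0.0483). Of 7 genes of the MICOS complex that shapes cristae, edgeR called 0, with 3 higher at an unadjusted p under 0.05, 1 called by DESeq2 and a median of 0.38.

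Proteins that enter through these routes were set beside them. Of 16 substrates of MIA40, 2 rose, 0 fell and 15 had log2 fold changes above 0, with a median of 0.30 (0 lower at an unadjusted p under 0.05 or by DESeq2). Leaving out single libraries left 0 to 1, and the replicate block gave 5. Cox6b1, a subunit of cytochrome c oxidase, had 102, 130 and 101 CPM in knockout islets and 62.4, 70.5 and 71.6 CPM in control islets (log2 fold change 0.70 ± 0.15 SE, adjusted p = 0.0192), and Ndufb7 of complex I had 0.63 (adjusted p = 0.0454). Of 13 carrier-type substrates of TIM22, 0 rose and 1 fell, with a median of 0.10 (1 higher at an unadjusted p under 0.05, 0 by DESeq2). Of all tested genes 4.52% rose and 6.25% fell, and a count of 1 does not set the carrier list apart. The one that fell was Slc25a13, the citrin carrier of aspartate and glutamate, with 3.01, 2.27 and 2.82 CPM in knockout islets and 6.38, 9.26 and 5.91 CPM in control islets. No library overlapped, and the log2 fold change was -1.40 ± 0.28 SE (adjusted p = 0.0136), which did not pass without control replicate 2 or without knockout replicate 3.

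Among 14 genes of mitochondrial quality control, 3 rose and 1 fell, where 4.52% of all tested genes rose and 6.25% fell. When single libraries were left out, 0 to 3 rose and 1 fell. The proteases Lonp1 and Spg7 had log2 fold changes of 0.49 and 0.55 (adjusted p = 0.0349 and 0.0261), and the prohibitin Phb had 0.76 (adjusted p = 0.0209). The gene that fell was Atf5, a transcription factor of the mitochondrial unfolded protein response. It had 18.8, 16.6 and 21.0 CPM in knockout islets and 89.8, 87.2 and 58.5 CPM in control islets. The groups were far apart, with a log2 fold change of -2.06 ± 0.19 SE (adjusted p = 0.00068), and the call held whichever of the 6 libraries was left out. Ddit3, which encodes the stress factor CHOP, had 33.6, 17.6 and 14.5 CPM in knockout islets and 85.8, 12.3 and 20.7 CPM in control islets. Control replicate 1 stood above all others, and the log2 fold change of -0.85 (adjusted p = 0.579) was 0.40 without it.

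Of 11 regulators of mitochondrial biogenesis, 1 rose and 0 fell, with 0 lower at an unadjusted p under 0.05 or by DESeq2. Beside the 4.52% of all tested genes that rose, a count of 1 does not set this list apart. Ppargc1a, which encodes the coactivator PGC-1alpha, had 15.1, 5.17 and 6.69 CPM in knockout islets and 3.25, 2.11 and 1.31 CPM in control islets. All knockout libraries were above all control libraries, with knockout replicate 1 the highest, and the log2 fold change was 2.02 ± 0.48 SE (adjusted p = 0.0303). The call was kept in 2 of 6 fits that left out a library and was lost with the acinar level as a covariate (adjusted p = 0.177). Nrf1 had 20.2, 21.7 and 20.5 CPM in knockout islets and 28.9, 23.2 and 24.0 CPM in control islets (log2 fold change -0.29, adjusted p = 0.258). Gabpa, whose product binds the ETS core found in many import promoters, had 53.7, 51.4 and 47.5 CPM in knockout islets and 44.8, 42.0 and 43.1 CPM in control islets (log2 fold change 0.23, adjusted p = 0.263). Neither passed the threshold, although in both genes the groups did not overlap.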

How the data were processed

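Polyadenylated RNA of islets from 6 mice was sequenced with a strand-specific kit, per the labels' protocols. Tools named in the submitters' processing notes are Salmon, Trimmomatic and DESeq2, with the builds GRCm38 and mm10. Their settings and the annotation are not stated there. The authors deposited estimated counts and TPM per transcript and library, per the file headers, and a table of log2 fold changes, adjusted p-values and a mean signal (baseMean) per gene, per the file headers. A separate deposited table with 6 per-sample columns of scaled gene values was not used.

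Of 140948 transcripts, 139852 matched a gene of GENCODE vM21, with 99.626% to 99.678% of reads. Estimated counts were added up by gene, then rounded. edgeR 4.0.16 (R 4.3.3) was run with TMM scaling, a filterByExpr minimum count of 10, the robust quasi-likelihood test between the 2 groups and Benjamini-Hochberg adjustment. SE is the log2 fold change divided by the root of F. CPM uses the scaled library size. TPM, with 0.1 added for ratios, served to compare genes within a library or group, never one gene between groups, since insulin took 6.51% to 9.66% of reads in knockout and 13.6% to 21.9% in control libraries. The common biological coefficient of variation was 0.26. The fit was tested on simulated data. Alternatives were limma 3.58.1 and DESeq2 1.42.0, DESeq2 size factors, no filter, a length offset, omitted libraries and a replicate block. Another took Ins1, Ins2 and Gm42418 out of the scaling only.

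Deviations of libraries with the same replicate number had correlations of 0.427, 0.135 and 0.196, against -0.318 to 0.14 for libraries of different numbers. The value of number 2, 0.135, lay within that range. Pairing by number comes from the data, and the meaning of a number is not in the labels. Values were printed per library for genes past the threshold, the 5 of highest TPM and partner pairs, some shortened to the difference. Of each other list up to 4 genes past the threshold were named, plus Nrf1, Gabpa, Ppargc1a, Atf5 and Ddit3. The import genes and lists were chosen with earlier results of these data known.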

Additional observations from a re-analysis of the deposited data

How the results depend on the processing

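Of the 4 import genes called higher, DESeq2 gave 10, the replicate block 9, leaving out 1 library 0 to 4, and, chosen after seeing the data, the acinar covariate 2 and the length offset without knockout replicate 2 gave 1. The median log2 fold change of 0.39 was 0.57 with the acinar covariate and 0.28 to 0.49 without 1 library. Over 32 genes and 16 settings, 498 of 512 log2 fold changes were above 0. The 14 reversals were in genes that never passed the threshold. With the acinar covariate Tomm34 was -0.09 and Hspa9 -0.06, and with the length offset and without knockout replicate 2 Timm21 was -0.06 and Timm10b -0.07. Without 1 library, log2 fold changes ranged over -0.03 to 0.08 for Tomm34, -0.02 to 0.29 for Hspa9, -0.18 to 0.18 for Timm21, -0.07 to 0.17 for Hspd1, -0.05 to 0.47 for Timm10b, -0.07 to 0.19 for Tomm20 and -1.31 to 0.40 for Ddit3. The cause of these changes was not tested. Among import genes and the other pathway lists, the replicate block changed the calls given in the report and added 1 higher gene each among MICOS genes and TIM22 carriers, and it changed no other count of these lists. The block moved mesenchymal markers called higher to 7 and endocrine markers called lower to 5. With 3 mice per group, log2 fold changes as large as 0.86 ± 0.26 SE (Timm10) did not pass the threshold.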
